A study of Mus musculus and Rattus norvegicus with 96 samples.

Results

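The genes described here encode the protein parts of the cytosolic ribosome in mouse liver. Members were taken by symbol from the RNA-seq count table (Rpl or Rps followed by a digit, Rplp genes and Rpsa, without the Rps6k kinases). Of 96 matching symbols, 93 averaged at least 1 CPM (counts scaled to a fixed library total) over the 48 libraries, out of 24543 genes listed. Rpl3l, Rpl10l and Rpl39l averaged less and were left out. The 93 members comprised 55 large subunit genes and 37 small subunit genes. The remaining symbol, Rps19bp1, encodes a protein that binds the small subunit protein Rps19 and is not a ribosomal protein gene. By kind, 77 were core genes, 5 were paralogs with a separate locus (Rps27l, Rpl22l1, Rpl36al, Rpl7l1 and Rps4l) and 10 were named as retrogenes or pseudogenes. Among the last, Rps27rt and Rpl34-ps1 were listed at the locus of Rps27 and of Rpl34, on the same strand, and not at a separate one. All 93 passed the filter on low counts and were tested.

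The cytosolic ribosome joins a small subunit, which reads the mRNA, with a large subunit, which forms the peptide bond, and most of its proteins are needed in equal numbers. Mammalian ribosomal protein mRNAs are short, abundant and begin with a run of pyrimidines called the 5′ terminal oligopyrimidine (5′ TOP) tract, through which growth signals control their translation. Hepatocytes make large amounts of secreted protein and hold many ribosomes.

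The libraries came from 12 male B6C3F1 mice aged 10 to 11 weeks, 6 given 600 ppm phenobarbital (PB), a drug that activates the hepatocyte receptor CAR, in drinking water for 7 days and 6 given water alone (Con). Each liver gave 4 preparations, so every mouse was present 4 times: frozen (FR), fixed fresh for 18 h in 10% neutral buffered formalin (NBF) and embedded in paraffin (FFPE), frozen and then fixed in the same way (FR > FFPE), and frozen, then held for 18 h in 70% ethanol and embedded (FR > OH). FR pieces were extracted with RNAzol RT and FFPE samples, in the paper's wording, with a kit for FFPE tissue. The paper states that FFPE samples were also heated and fragmented for a shorter time in library preparation. It does not say whether this step and the kit held for every embedded preparation, and time in block is not given for each. Embedding, time in block, extraction and the shorter fragmentation cannot be told apart in any comparison with FR that differs in them. The design asked what formalin does to RNA measurements when it meets fresh rather than frozen tissue, and whether a drug response can still be seen afterwards.

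Total counts were 1.17e+07 to 1.37e+07 in the 12 FR libraries and 4.95e+06 to 6.76e+06 in the 12 FFPE libraries. These were 46.6% to 51.8% and 21.4% to 27.5% of the library totals behind the authors' log2 CPM values. Those totals were inferred from the values, and which reads they count was not stated. They are called total reads below. The ribosomal RNA precursor Rn45s took 0.421% to 1.31% of FR counts and 8.13% to 12.8% of FFPE counts. Cyp2b10, the standard CAR target, reached at most 2.45 CPM in Con and at least 1078 CPM in PB. Transcripts of 8 hepatocyte genes summed to 83000 to 116792 CPM in FR Con libraries and to 51150 to 61981 CPM in those of FFPE Con. Of these genes, 6 were called lower and 1 higher in FFPE vs. FR. Median log2 fold changes of the cell type lists ran from -1.35 (erythroid cell) to 0.67 (bile duct). Transcripts of 6 lymphocyte genes summed to 9.5 to 33.2 CPM over the FR and FFPE libraries. A tag in the library names, read here as the sequencing lane, differed between groups. No label states what the tag stands for, so every lane named below rests on that reading. In these bulk samples, fewer cells of a type and less RNA per cell cannot be told apart.

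Transcript starts were examined because the 5′ TOP tract is a known trait of the mRNAs of this family, although other mRNAs also carry it. RefSeq promoters (GRCm38.p6) matched 66 of the 93 members. A run of 5 or more pyrimidines that began at a C within 3 bases of the annotated start was found in 26 of them, or 39.4%, against 11.6% of all 27025 promoters and 12.5% of those of 10280 tested genes. The starts below belong to genes on which the results turn. Each shows 10 bases before the annotated start and 20 from it, with the run in capitals where there was one, counted from that C onwards. Pyrimidines that lie directly before it, as in Rpl35, Rpl15 and Rpl22l1, are left in lower case.

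Rps27 (chr3:90213629-90213658, minus strand): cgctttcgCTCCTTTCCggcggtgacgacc
Rps27l (chr9:66946076-66946105, plus strand): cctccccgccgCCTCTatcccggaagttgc
Rpl22 (chr4:152325716-152325745, plus strand): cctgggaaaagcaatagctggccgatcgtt
Rpl22l1 (chr3:28805498-28805527, plus strand): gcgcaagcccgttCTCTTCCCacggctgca
Rpl7l1 (chr17:46782637-46782666, minus strand): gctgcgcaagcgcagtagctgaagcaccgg
Rps6 (chr4:86857348-86857377, minus strand): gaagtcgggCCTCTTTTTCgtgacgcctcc
Rpl35 (chr2:39005112-39005141, minus strand): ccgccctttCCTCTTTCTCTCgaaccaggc
Rpl15 (chr14:18270967-18270996, minus strand): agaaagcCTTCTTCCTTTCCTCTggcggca
Rps18 (chr17:33955646-33955675, minus strand): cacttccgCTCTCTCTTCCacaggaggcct
Rpsa (chr9:120127756-120127785, plus strand): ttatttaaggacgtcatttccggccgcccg

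Rps27 and Rps27l both had such a run, whereas no run was found at the annotated starts of Rpl22, Rpl7l1 and Rpsa. The start shown for Rpl22 lay inside the gene, which the count table lists from 152324436, so the absence concerns that start alone. The letters CTTCCGG, searched on both strands from 250 bases before to 50 bases after the start, were present in 36.4% of the members' promoters, 9.12% of all promoters and 17.7% of those of tested genes. In the same order CTTTCC, which can lie within a pyrimidine run, was present in 48.5%, 26.3% and 26.6%, AAGATGG in 13.6%, 6.48% and 7.25%, and TATAAA in 12.1%, 14.2% and 7.45%.

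In FR Con liver the 93 members together took 0.671% to 0.692% of the counts on tested genes, with a median of 0.682%. Per kilobase of the principal GENCODE transcript, the highest median levels in FR Con were those of Rpl41, a very small and basic large subunit protein, at 316 CPM per kb, Rpl10, which is needed to bring the large subunit to its mature form, at 282 CPM per kb, and Rplp1, an acidic protein of the large subunit stalk, at 220 CPM per kb. The lowest were Rps15a at 3.68 CPM per kb, Rpl34 at 5.74 CPM per kb and the paralog Rps4l at 6.50 CPM per kb. The low value of Rps15a was set against a principal transcript of 5179 bases, the longest among the members. The places of Rps15a and Rpl34 are uncertain, since entries that share sequence with them took more counts. Averaged over all libraries, these were 34.5 CPM on Rps15a-ps4 and Rps15a-ps6 beside 19.9 CPM on Rps15a, and 13.3 CPM on Rpl34-ps1 beside 3.56 CPM on Rpl34. Rpl34-ps1 was listed within the coordinates of Rpl34 itself.

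Large and small subunit genes kept nearly the same proportion in every preparation. The summed CPM of the large subunit genes was 1.79 times that of the small subunit genes at the median of the FR libraries, 1.84 times in FFPE and 1.80 times in FR > FFPE and FR > OH, within a range of 1.73 to 1.90 over all 48 libraries. The group ranges overlapped.

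**Figure D1:**
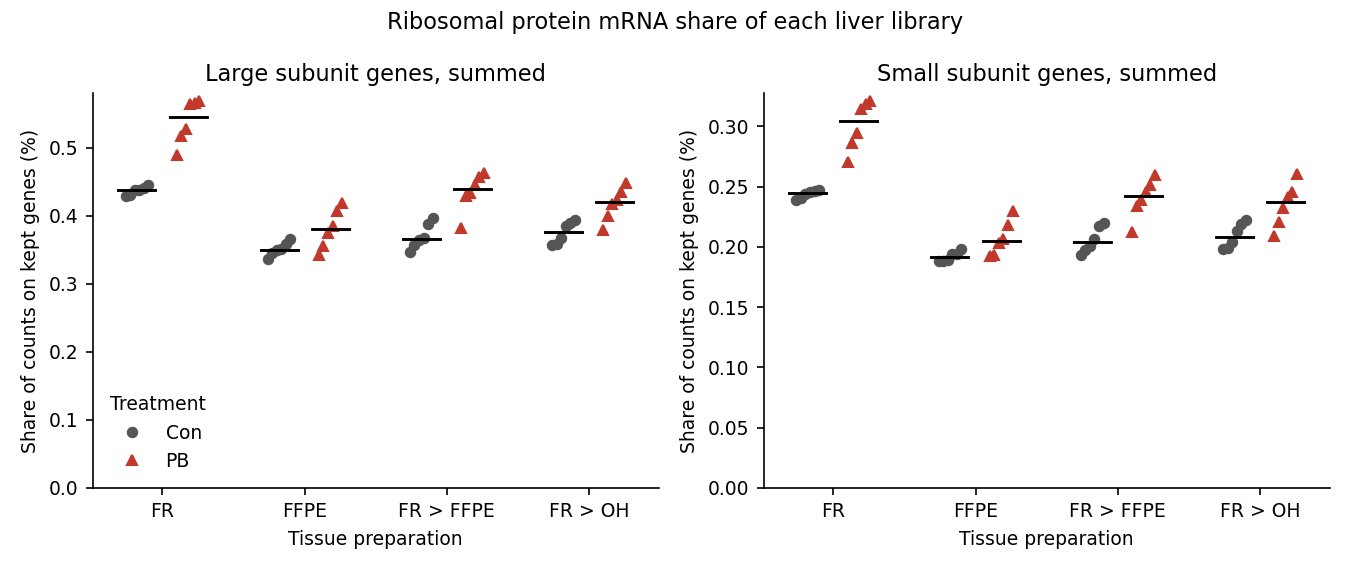
Summed level of the large and the small subunit genes in each of the 48 libraries, as a percentage of the counts on tested genes, by preparation and treatment; points are libraries and lines are group medians. FR PB libraries lie above FR Con libraries, and FFPE libraries lie below FR libraries in both subunits.

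Ribosomal protein transcripts were lower in FFPE than in FR liver, in both subunits and in both treatments. Their share of counts fell from a median of 0.682% in FR Con to 0.543% in FFPE Con, where it ranged from 0.526% to 0.565%, and from 0.854% in FR PB, where it ranged from 0.762% to 0.888%, to 0.586% in FFPE PB, where it ranged from 0.535% to 0.649%. FR and FFPE libraries did not overlap in either treatment. Of the 93 members, 60 were called lower in both treatments and none higher (edgeR quasi-likelihood test, Benjamini-Hochberg adjusted p under 0.05), against 11.7% of all 13370 genes called lower and 39.5% called higher. The median log2 fold change of the members was -0.51, with quartiles of -0.70 and -0.23, beside 0.32 for all genes. In 63 members all 12 mice were lower in FFPE than in FR, as were 11.7% of all genes. All FFPE Con libraries were run in lane 1 and all FR Con libraries in lane 2, so that lane and preparation cannot be told apart within Con. FFPE PB libraries were in lanes 1 and 2 and FR PB libraries in lanes 2 and 3. With a lane term, in a fit of the 24 FFPE and FR libraries alone, 42 members were called lower. That term rests on the PB libraries, whose groups alone were split over lanes. The share of all genes called in that fit was not computed. Within lane 2, which held 2 PB libraries of each preparation, 86 of 93 were below 0 with a median of -0.56.

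These figures depend on the library total used, because counts were scaled to the total on tested genes alone. With TMM scaling the all-gene median moved from 0.32 to 0.04 and the members' median to -0.80. With total reads, inferred from the authors' log2 CPM values, they moved to -0.63 and -1.47. Among all genes 1567 were lower and 5276 higher in the main test, 3000 and 3103 with TMM, and 7913 and 446 with total reads.

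Among large subunit genes, 38 of 55 were lower in FFPE than in FR in both treatments. Rpl26, whose protein lies at the exit of the peptide tunnel, measured 15.2, 19.7 and 25.2 CPM (lowest, median and highest of 6) in FR Con and 5.68, 6.11 and 12.5 CPM in FFPE Con, without overlap, and its log2 fold change averaged over Con and PB was -1.55 (SE 0.17, adjusted p = 2.07e-11). Rpl30 measured 7.60, 9.93 and 14.0 CPM in FR Con and 1.68, 3.602 and 10.6 CPM in FFPE Con. The Rpl30 ranges overlapped, although it was lower in 12 of 12 mice, with a log2 fold change of -1.15 (SE 0.21, adjusted p = 5.31e-06). Rpl10 fell from a median of 241 CPM in FR Con (231 to 256 CPM) to 158 CPM in FFPE Con (128 to 184 CPM), a log2 fold change of -0.70 (SE 0.052, adjusted p = 2.87e-16).

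Several abundant large subunit genes were not called lower in FFPE in both treatments with this library total, although 54 of the 55 were called with TMM and 55 with total reads, so that those named here were lower under at least 1 of these scalings. Rpl41 measured 171, 184 and 198 CPM in FR Con and 163, 173 and 190 CPM in FFPE Con, and its log2 fold change was -0.12 (SE 0.065, adjusted p = 0.0872). Rpl28, also of the large subunit, had a log2 fold change of -0.01 (SE 0.046, adjusted p = 0.911).

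The stalk recruits the translation factors that hydrolyse GTP. Rplp0, its scaffold, measured 264, 268 and 285 CPM in FR Con and 256, 284 and 293 CPM in FFPE Con, with overlapping groups and a log2 fold change of -0.04 (SE 0.051, adjusted p = 0.481). Its partner Rplp1 measured 106, 110 and 119 CPM in FR Con and 92.9, 105 and 128 CPM in FFPE Con, with a log2 fold change of -0.10 (SE 0.060, adjusted p = 0.149). Rplp2 was listed with medians of 9.18 CPM (FR Con) and 8.58 CPM (FFPE Con), and passed the test in PB (log2 fold change -0.60, SE 0.15, adjusted p = 0.000577) but not in Con (-0.16, SE 0.15, adjusted p = 0.371). The difference between those treatments was not called for Rplp2. Its values are uncertain, since its copy Rplp2-ps1 averaged 70.4 CPM beside 9.04 CPM on Rplp2, and the sum of both fell by 0.49 ± 0.18 (SD) on the log2 scale, in 12 of 12 mice.

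Among small subunit genes, 22 of 37 were lower in FFPE than in FR in both treatments. Rps29, a small zinc-binding protein of the subunit head, measured 60.4, 65.9 and 69.4 CPM in FR Con and 19.01, 24.8 and 26.6 CPM in FFPE Con. The same gap was present in PB, where FR libraries measured 70.5, 83.1 and 94.8 CPM and FFPE libraries 16.8, 24.9 and 29.5 CPM, and the averaged log2 fold change was -1.61 (SE 0.10, adjusted p = 1.21e-18). Rps6, the ribosomal substrate of S6 kinase, fell from 177, 185 and 189 CPM in FR Con to 108, 121 and 125 CPM in FFPE Con, with a log2 fold change of -0.70 (SE 0.046, adjusted p = 5.21e-18). No FFPE library reached the level of a FR library of the same treatment for Rps29 or Rps6.

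Rpsa, which encodes both a small subunit protein and the laminin receptor, did not follow them. It measured 177, 183 and 193 CPM in FR Con and 190, 201 and 217 CPM in FFPE Con, and was higher in Con (log2 fold change 0.13, SE 0.053, adjusted p = 0.0295) but not called in PB (0.05, SE 0.053, adjusted p = 0.428). Rps16, near the decoding site, had a log2 fold change of -0.04 (SE 0.054, adjusted p = 0.511). Rps19-ps3, a copy of Rps19, had the highest log2 fold change of the 93 at 0.52 (SE 0.17, adjusted p = 0.0055), from a median of 3.00 CPM in FR Con, and passed the test in Con but not in PB. With scaling to total reads the fitted change was below 0 for all 93 members, Rpsa and Rps19-ps3 included.

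With this library total, Rpl26, Rpl30, Rps27l, Rps29, Rps15a-ps4 and Rps15a-ps6 were also at least 2-fold lower in both treatments, 6 of 93 members, against 1.28% of all genes. With total reads the members' median itself was -1.35 in Con and -1.53 in PB, beside -0.64 and -0.62 for all genes. The 2 subunits did not separate: the median log2 fold change was -0.52 for large and -0.46 for small subunit genes, and the difference between these medians in single mice ran from -0.12 to 0.11. Rps19bp1, the gene that is no ribosomal protein, had a log2 fold change of -0.45 (SE 0.091), called in PB but not in Con.

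**Figure D2:**
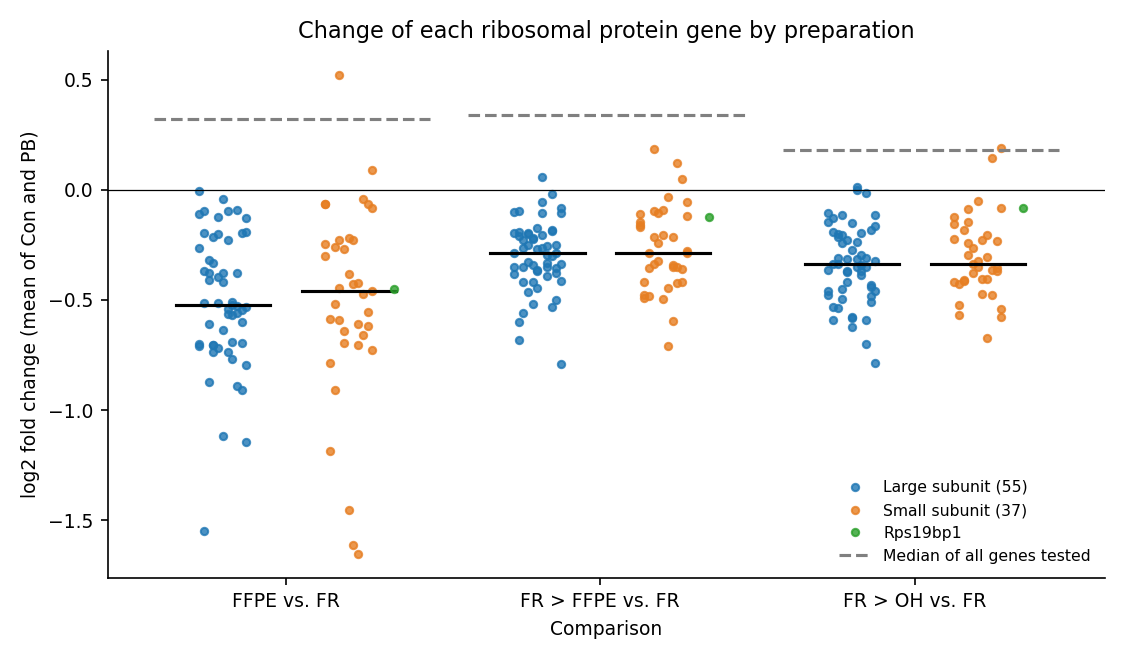
log2 fold change against FR of every member in FFPE, FR > FFPE and FR > OH, averaged over Con and PB, with large and small subunit genes apart; black bars are medians and the dashed grey lines are the medians of all genes. The members' medians are -0.51, -0.29 and -0.34 and the all-gene medians 0.32, 0.34 and 0.18.

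Ribosomal protein transcripts are short, and short transcripts in general were lower in FFPE. That transcript had a median of 836.5 bases over the 92 members with a length and 2992.5 bases over all genes. Across genes, which are not independent, log2 fold change and log length had a Pearson r of 0.37 and a Spearman rho of 0.39 over 92 members, and r of 0.37 and rho of 0.39 over 13100 genes. Among transcripts of 500 to 1000 bases the median log2 fold change was -0.54 for 46 members and -0.46 for all genes. Under 500 bases it was -0.72 for 16 members and -0.26 for all genes, and from 1000 to 2000 bases it was -0.35 for 24 members and -0.01 for all genes. After the trend over length and GC content was removed with splines, the members' median relative to all genes was -0.25, compared with -0.84 before. The part of transcript length in the FFPE difference was not tested beyond this trend, and that of the shorter fragmentation of FFPE samples was not tested.

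**Figure D3:**
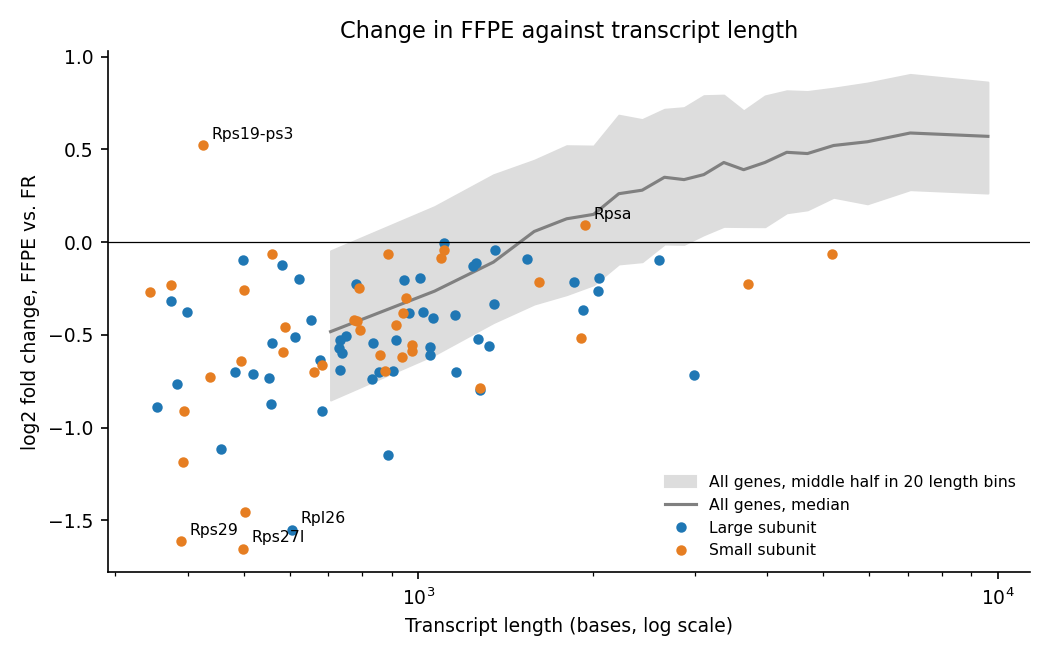
log2 fold change of FFPE vs. FR against length of the principal GENCODE transcript in bases (log axis) for the 92 members with a length; the grey band spans the lower to the upper quartile of all genes in 20 length bins. Between 500 and 1000 bases the members' median is -0.54 and that of all genes -0.46, and below 500 bases -0.72 and -0.26.

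Ribosomal protein transcripts were also lower where the tissue had been frozen before fixation, with smaller medians. In FR > FFPE vs. FR, 48 members were lower and none higher in both treatments, against 4.94% and 38.7% of all genes, and the median log2 fold change was -0.29 beside 0.34 for all genes. In FR > OH vs. FR, 55 members were lower and none higher, against 6.02% and 25.8% of all genes, with medians of -0.34 and 0.18. These comparisons share the FR libraries. FR > OH libraries were run in lanes 4 and 5, apart from all FR libraries, and FR > FFPE libraries in lane 3 (Con) and lane 4 (PB), where FR libraries of the same treatment were in lane 2 (Con) and in lanes 2 and 3 (PB), so that lane and preparation cannot be told apart within a treatment in either comparison. Rps29 had a log2 fold change of -0.71 (SE 0.096) after freezing and formalin and -0.47 (SE 0.095) after freezing and ethanol, and Rps6 of -0.32 (SE 0.045) and -0.38 (SE 0.045). Rpl41, which was not called in FFPE, had -0.42 (SE 0.065, adjusted p = 2.77e-07) in FR > FFPE and -0.42 (SE 0.065, adjusted p = 4.65e-07) in FR > OH.

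Direct fixation was also compared with fixation after freezing. Both preparations were fixed in formalin and embedded, but their extraction and time in block are not stated separately. Their lanes did not overlap, with FFPE in 1 and 2 and FR > FFPE in 3 and 4, so that lane and preparation cannot be told apart. In FFPE vs. FR > FFPE, 21 members were lower in both treatments and Rpsa was higher, against 5.7% and 2.48% of all genes. Medians were -0.19 for the members and -0.02 for all genes. Rps29 measured 31.3, 42.3 and 46.8 CPM in FR > FFPE Con and 19.01, 24.8 and 26.6 CPM in FFPE Con, without overlap, and its averaged log2 fold change was -0.90 (SE 0.10). Rps6 had -0.38 (SE 0.046) and Rpsa 0.21 (SE 0.038, adjusted p = 2.8e-05). With TMM 21 members were lower and 1 large subunit gene was higher, so that Rpsa lost its call, and with total reads 90 were lower and none higher, against 5.33% and 65.3% of all genes called lower. In FFPE vs. FR > OH, 21 members were lower and 1 was higher, against 3.75% and 7.82% of all genes. With TMM these were 39 and 0, and with total reads 91 and 0, against 6.73% and 56.4% of all genes called lower. In FR > FFPE vs. FR > OH, only Rpl39 (log2 fold change 0.43, SE 0.091, adjusted p = 0.00061) and Rps24 (0.26, SE 0.051, adjusted p = 0.000308) were higher and none lower, against 2.4% and 0.194% of all genes. Neither call held under the other scalings, with 4 lower and 0 higher under TMM and 0 in either direction with total reads.

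In 3 of 5 pairs a paralog changed by another amount than its parent gene in FFPE vs. FR. The clearest pair was Rps27, a zinc-binding small subunit protein, and Rps27l, a close relative known as a p53 target. Rps27l measured 37.8, 45.2 and 47.0 CPM in FR Con and 13.4, 15.9 and 17.6 CPM in FFPE Con, and its log2 fold change of -1.65 (SE 0.094, adjusted p = 3.54e-20) was the most negative of the 93. Rps27 measured 15.9, 18.9 and 20.0 CPM in FR Con and 15.1, 16.7 and 20.0 CPM in FFPE Con. The 2 groups overlapped for Rps27 and not for Rps27l, and Rps27 was not called in Con (log2 fold change -0.12, SE 0.098, adjusted p = 0.308) but was lower in PB (-0.42, SE 0.097, adjusted p = 0.000281).

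The ratio of the 2 genes within a library does not depend on the library total. Rps27l was 2.36 times Rps27 at the median of FR Con (2.10 to 2.73), 0.979 times in FFPE Con (0.679 to 1.07), 1.49 times in FR > FFPE Con and 1.63 times in FR > OH Con. In PB it was 2.70 times in FR (2.32 to 3.21) and 1.07 times in FFPE (0.843 to 1.17). Over 12 mice the log2 ratio changed by -1.37 ± 0.24 (SD) in FFPE, by -0.40 ± 0.16 in FR > OH and by -0.50 ± 0.25 in FR > FFPE, each lower in 12 of 12 mice (two-sided exact sign-flip permutation test, p = 0.000488, the smallest that 12 mice can give, and 0.00105 adjusted over the 15 tests of 5 pairs in 3 preparations). In FFPE vs. FR > FFPE, Rps27l had a log2 fold change of -1.06 (SE 0.094). Windows of 50 bases were not shared between Rps27 and Rps27l. Of those of Rps27, 98.6% were found in Rps27rt, and 91.1% of those of Rps27rt were found in Rps27. Rps27rt was listed at the same locus as Rps27 and took 19.5 CPM beside 18.0 CPM on Rps27, averaged over all libraries. The ratios above use the Rps27 entry alone and would be lower with both entries summed. They therefore do not show that Rps27l transcripts exceeded those of Rps27 in FR. With the counts of Rps27rt added to Rps27, the change in FFPE was -1.39.

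Rpl22l1 and Rpl22 encode alternative forms of an RNA-binding large subunit protein. Rpl22l1 measured 11.5, 14.0 and 16.4 CPM in FR Con and 6.82, 7.72 and 12.5 CPM in FFPE Con, and Rpl22 57.8, 59.02 and 62.9 CPM and 49.1, 57.2 and 63.1 CPM. Their log2 ratio changed by -0.54 ± 0.31 (SD) in FFPE, lower in 12 of 12 mice (exact permutation test, adjusted p = 0.00105), by -0.25 in FR > OH, lower in 9 of 12 (exact adjusted p = 0.0228), and by -0.19 in FR > FFPE, lower in 11 of 12 (exact adjusted p = 0.0637).

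For Rpl7l1, a relative of Rpl7 that works in large subunit assembly, the ratio to the parent rose. Rpl7 measured 183, 186 and 191 CPM in FR Con and 113, 123 and 140 CPM in FFPE Con, while Rpl7l1 measured 48.7, 51.2 and 60.2 CPM and 43.3, 51.4 and 56.1 CPM. The log2 ratio of Rpl7l1 to Rpl7 rose by 0.60 ± 0.25 (SD) in FFPE, by 0.49 ± 0.15 in FR > OH and by 0.52 ± 0.14 in FR > FFPE, with none of 12 mice lower (exact permutation test, adjusted p = 0.00105 in each). Rpl7l1 itself was not called in FFPE (log2 fold change -0.10, SE 0.065, adjusted p = 0.175). Its principal transcript had 2606 bases, that of Rpl7 1163, that of Rps27 345 and that of Rps27l 499.

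For Rpl36al and Rpl36a, which encode nearly the same large subunit protein, the log2 ratio changed by -0.09 ± 0.32 (SD) in FFPE (exact adjusted p = 0.35). Both genes were lower, Rpl36al by a log2 fold change of -0.80 (SE 0.048) and Rpl36a by -0.70 (SE 0.10). For Rps4l, a copy-like relative of the X-linked small subunit gene Rps4x, the change was 0.22 ± 0.45 in FFPE (exact adjusted p = 0.16), 0.28 in FR > FFPE (exact adjusted p = 0.16) and 0.37 in FR > OH (exact adjusted p = 0.0228), at levels of 3.84 to 7.12 CPM for Rps4l in FR Con. Within Con or PB alone, 6 mice allow no p below 0.03125 before adjustment and none of the 5 ratios in FFPE passed, with the direction kept for all but Rpl36al to Rpl36a.

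**Figure D4:**
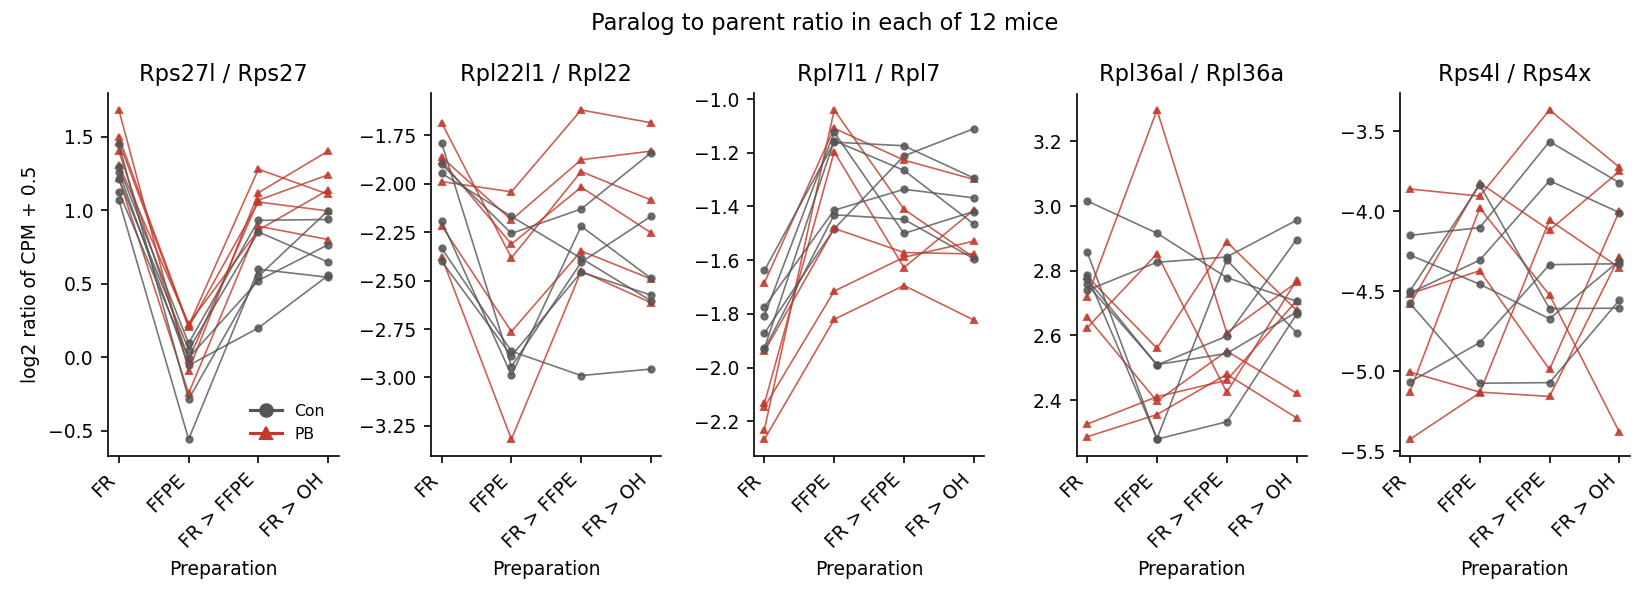
log2 ratio of paralog to parent gene (CPM + 0.5) in the 4 preparations for 5 pairs, with a line for each of 12 mice. Rps27l to Rps27 falls in FFPE in every mouse, by 1.08 to 1.78, and Rpl7l1 to Rpl7 rises in every mouse, by 0.361 to 1.19.

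Retrogenes and pseudogenes share sequence with their parents, so that the authors' expectation-maximisation counting had to assign shared reads to one or the other. For core genes a median of 44.7% of 50-base windows were also found in another listed transcript, and in 32 of 77 this was 50% or more. Rps15a and its copies had different values. Rps15a had a log2 fold change of -0.07 (SE 0.078), while Rps15a-ps4 had -1.45 (SE 0.15) and Rps15a-ps6 -1.19 (SE 0.099). Of the windows of Rps15a 6.28% were shared, but over the 5130 windows of its long principal transcript. Rps15a-ps6 had 344 windows, of which 55.2% were found in Rps15a, so the low share does not make the Rps15a value free of read assignment. The sum of the 3 fell by 0.78 ± 0.22 (SD) on the log2 scale, in 12 of 12 mice, and the part of read assignment in these differences was not tested. Rps15a-ps4 measured 10.3, 12.4 and 13.5 CPM in FR Con and 2.17, 4.60 and 7.66 CPM in FFPE Con. Rps19 and Rps19-ps3 had changes of opposite sign, and their sum changed by -0.34. For each of the 9 parents with copies the sum was lower in FFPE in 12 of 12 mice, except for Rps27 with 10 of 12. Changes of a single copy or of its parent are therefore uncertain.

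Ribosomal protein transcripts were higher in PB than in Con frozen liver. In FR, 68 of 93 members were higher in PB than in Con and none lower, against 5.86% of all genes called higher, and the fitted change was above 0 for all 93, while 2.6% of all genes were lower. The median log2 fold change was 0.31, beside 0.00 for all genes, and it was 0.31 for large and 0.33 for small subunit genes. In 51 members the lowest PB library lay above the highest Con library, as in 4.2% of all genes. None of the 93 reached a 2-fold change. In the same libraries the summed hepatocyte markers had medians of 96615 CPM in Con and 74988 CPM in PB, with 2 of 8 genes called lower, and the Kupffer cell markers 387 CPM in Con and 451 CPM in PB, with 0 of 7 genes called. Their part in the change was not tested.

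Among large subunit genes, Rpl17 measured 55.5, 62.6 and 67.5 CPM in FR Con and 74.2, 88.8 and 98.6 CPM in FR PB, a log2 fold change of 0.50 (SE 0.076, adjusted p = 3.7e-06). Rpl6 measured 109, 114 and 118 CPM in Con and 134, 145 and 153 CPM in PB, a log2 fold change of 0.35 (SE 0.057, adjusted p = 1.4e-05). In both genes, and in Rpl35 and Rpl15, all PB libraries lay above all Con libraries.

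Rpl35, whose protein sits at the tunnel exit where nascent chains emerge, measured 42.4, 49.1 and 52.5 CPM in FR Con and 52.6, 64.7 and 70.9 CPM in FR PB, with a log2 fold change of 0.38 (SE 0.069, adjusted p = 9.2e-05). Rpl15 measured 123, 128 and 132 CPM in Con and 138, 172 and 182 CPM in PB, with a log2 fold change of 0.41 (SE 0.073, adjusted p = 9.7e-05). The copy Rpl14-ps1 changed by 0.29 (SE 0.057, adjusted p = 0.00039). Its value is uncertain, since 78.3% of its windows lie in Rpl14.

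Among small subunit genes, Rps18 of the subunit head measured 45.4, 50.6 and 52.8 CPM in FR Con and 55.3, 65.5 and 76.1 CPM in FR PB, with a log2 fold change of 0.40 (SE 0.080, adjusted p = 0.00042). Rps15, also of the head, had 0.33 (SE 0.066, adjusted p = 0.00053). Of the stalk, Rplp0 had 0.31 (SE 0.072, adjusted p = 0.00317) and Rplp1 0.41 (SE 0.084, adjusted p = 0.00079), whereas Rplp2 had 0.21 (SE 0.14) and was not called. Rps6 had 0.27 (SE 0.064, adjusted p = 0.00402) and Rpsa 0.22 (SE 0.053, adjusted p = 0.0049). Rpl7l1 had the lowest change of the 93, at 0.03 (SE 0.090, adjusted p = 0.911), and its parent Rpl7 had 0.27 (SE 0.070, adjusted p = 0.00804).

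The lane bears on these counts. All 6 FR Con libraries were run in lane 2, as were 2 FR PB libraries, and the other 4 FR PB libraries were run in lane 3. Within lane 2 the members took 0.805% to 0.824% of counts in the 2 PB libraries and 0.671% to 0.692% in the 6 Con libraries, and 91 members were above 0 with a median log2 difference of 0.27. With lane as a term, in a fit of FR and FFPE alone chosen after the data were seen, the median was again 0.27 with 91 of 93 above 0. Unadjusted p was under 0.05 for 58 members, and the share of all genes was not computed. Only 7 passed the adjusted test (among them Rpl15, Rpl17, Rpl6 and Rpl39, the last named after its value was seen), against 1.78% of all genes.

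**Figure D5:**
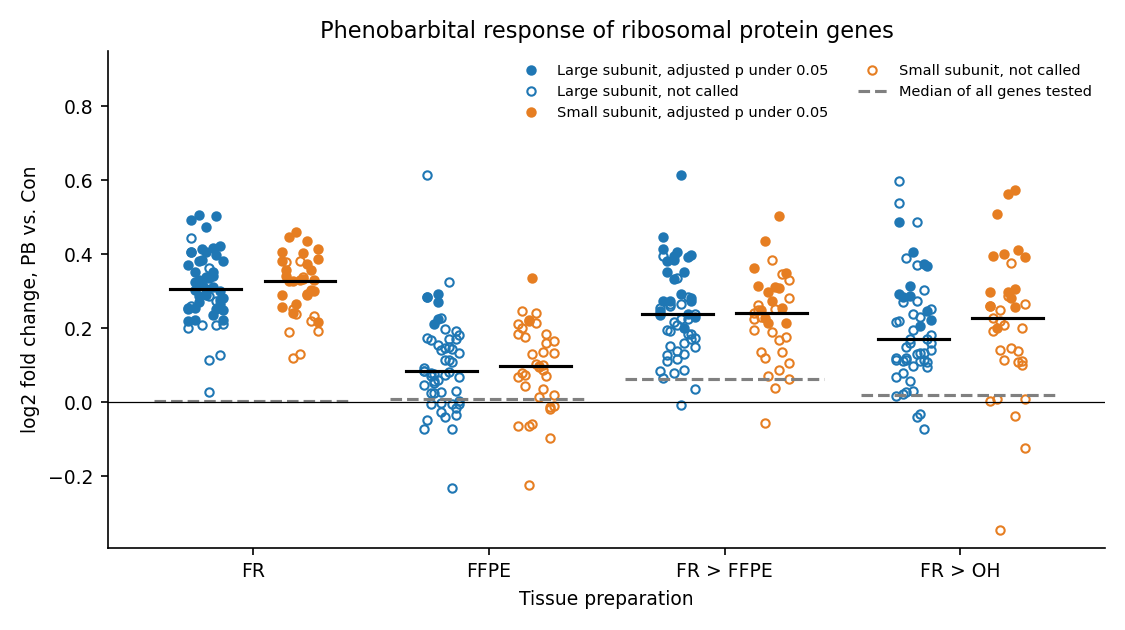
log2 fold change of PB vs. Con for 92 members (without Rps19bp1) in each of the 4 preparations; filled points have an adjusted p under 0.05 in the test without a lane term. In FR all points lie above 0, and the medians over the 93 members are 0.31 (FR), 0.09 (FFPE), 0.24 (FR > FFPE) and 0.20 (FR > OH).

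Fewer members passed the PB test in the embedded preparations. In FFPE, 7 were higher (among them Rpl3, Rpl18, Rpl35, Rpl41, Rplp1 and Rps9) and none lower, against 4.64% of all genes called higher and 1.98% lower, with a median of 0.09. With TMM scaling 0 were called, against 4.2% of all genes called higher, and with a lane term 1, against 3.09%. Without a lane term 22 members had an unadjusted p under 0.05, and the share of all genes was not computed. In FR > FFPE, 36 were higher and none lower, against 6.24% and 0.987% of all genes, with a median of 0.24 beside 0.06. With TMM 9 were called higher, against 3.63% of all genes. There, all Con libraries were in lane 3 and all PB libraries in lane 4, so lane and treatment cannot be told apart. In FR > OH, 25 were higher and none lower, against 8.43% and 3.77% of all genes, with a median of 0.20 beside 0.02, and with a lane term 2 were called, against 2.01% of all genes. Members whose PB libraries all lay above the Con libraries numbered 1 (FFPE), 5 (FR > FFPE) and 14 (FR > OH), against 2.12%, 3.2% and 4.27% of all genes.

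The PB change of Rpl35 was called in each preparation without a lane term, but not in FFPE with TMM and not in FR or FFPE with a lane term. Its log2 fold change was 0.38 in FR (adjusted p = 9.2e-05), 0.23 in FFPE (SE 0.072, adjusted p = 0.0455), 0.31 in FR > OH (SE 0.070, adjusted p = 0.00156) and 0.39 in FR > FFPE (SE 0.070, adjusted p = 8.2e-05). Rps27l, with the most negative change in FFPE vs. FR, had a PB change of 0.44 in FR (adjusted p = 0.0147), 0.14 in FFPE (adjusted p = 0.651), 0.57 in FR > OH (adjusted p = 0.00116) and 0.50 in FR > FFPE (adjusted p = 0.00666).

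Whether the PB response itself differed between preparations was tested by the interaction of treatment with preparation. No member was called in any preparation by edgeR, nor was any of the 13370 genes (0%), and limma and DESeq2 size factors also called 0 members. On simulated counts, where 100 genes were changed by each amount and no others, 79% of 2-fold interactions with FFPE and 2% of those of 0.3 on the log2 scale were recovered. These shares need not hold for the members. Unadjusted p was under 0.05 for 34 members (FFPE), 4 (FR > FFPE) and 11 (FR > OH), and for 3.46%, 2.15% and 2.28% of all genes. The median interaction of the members was -0.21 in FFPE, with 90 of 93 below 0, -0.12 in FR > OH and -0.08 in FR > FFPE. These 3 interactions share the FR libraries. With mouse as a replicate block, 1 member was called, in FR > OH and below 0, against 0.0224% of all genes.

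Members with and without a pyrimidine run at the start were set side by side. The median PB change in FR was 0.30 both for the 26 members with a run and for the 40 without, and 17 and 31 of them were called. In FFPE vs. FR the medians were -0.38 and -0.52, with 13 and 27 called lower.

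Other genes of translation were counted in the same way in FFPE vs. FR. Of 27 other 5′ TOP mRNAs, 7 were lower and 6 higher, with a median of -0.04. Btf3, part of the nascent polypeptide-associated complex, had -0.64, and Pabpc1, the poly(A)-binding protein, had 0.60. Fau, which encodes Rps30, had -0.41 (SE 0.073), and Rack1, a signalling scaffold on the small subunit, had -0.16 (SE 0.050) and was not called in Con. Of 57 translation factors, 17 were lower and 16 higher, with a median of -0.03, from Eif3m at -0.90 to the translation repressor gene Eif4ebp2 at 1.42.

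Mitochondrial ribosomal proteins, which belong to a separate ribosome, had 47 of 78 genes lower and 5 higher, with a median of -0.48, from Mrpl41 at -1.09 to Mrpl18 at 0.57. Of 40 ribosome assembly genes, 3 were lower and 6 higher, with a median of -0.04, from Nop10 at -1.22 to Gar1 at 1.32, both parts of the same small nucleolar particle. With PB in FR, 3 of the 5′ TOP list were higher and none lower, including Rack1 at 0.38 (SE 0.070, adjusted p = 0.00018). Translation factors had 4 higher and 1 lower, mitochondrial ribosomal proteins 5 higher and none lower, and assembly genes none higher and 1 lower, with medians of 0.17, 0.08, 0.13 and -0.02 in the order named. The lists were compared by counts only.

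A few members were also measured by TempO-Seq, in which a pair of probes is ligated on a short stretch of each RNA and the ligated product is counted. Rat liver came from male F344 rats and rat lung from male WKY rats, all given vehicle, with 6 libraries per preparation. In rat liver, 6 of 7 members were lower in FFPE than in FR and 1 was higher, against 33.5% and 46.2% of 2281 features. Rps6 measured 3353, 3915 and 4421 CPM in 6 FR libraries and 616, 1037 and 1338 CPM in 6 FFPE libraries, without overlap, with a log2 fold change of -1.92 (SE 0.21, adjusted p = 1.27e-08). Rpl19, a large subunit gene, had -2.10 (SE 0.33), Rpl6 had -1.57 (SE 0.18), Rps19 -1.18 (SE 0.23) and Rps27a, a ubiquitin fusion gene, -1.11 (SE 0.20). Rps27l was the exception, at 19.02, 25.0 and 37.4 CPM in FR and 66.9, 75.8 and 91.7 CPM in FFPE, a log2 fold change of 1.55 (SE 0.19, adjusted p = 4.24e-08). Its counts before scaling overlapped, at 40 to 87 in FR and 28 to 88 in FFPE. Those of Rps6 were 6005 to 10134 in FR and 244 to 1606 in FFPE. The rise of Rps27l thus appeared only after scaling to library size. After freezing first, 4 members were lower, Rpl19, Rpl6 and Rps6 among them, against 27.5% of features, and Rps27l had 0.07 (SE 0.18, adjusted p = 0.747).

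In rat lung, where direct fixation in NBF lasted 1 year, 6 of 7 were lower and Rps27l higher in FFPE, against 31.5% and 44% of features. Rps6 measured 11083, 15520 and 15808 CPM in 5 FR libraries and 4172, 4946 and 5575 CPM in 6 FFPE libraries, a log2 fold change of -1.57 (SE 0.21, adjusted p = 9.06e-07). Rps27l had 0 to 4 counts in the FR libraries and 2 to 42 in the FFPE libraries, so its fold rests on very few counts. A further FR library held a total of 12 counts and was left out. In FR > FFPE rat lung 5 were lower and Rps27l, at 8 to 15 counts, was higher, against 31.2% and 46.3% of features.

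In AML12, a mouse hepatocyte line derived from a CD-1 male and exposed to dilute NBF for 10 minutes in culture, 2 of 6 members were lower at 0.1% NBF, against 8.6% of 1570 features. Rplp0 measured 15158, 16411 and 17002 CPM in 3 vehicle wells and 8367, 12106 and 12193 CPM in 3 exposed wells, with a log2 fold change of -0.57 (SE 0.17, adjusted p = 0.0233). Rps27l measured 1821, 2250 and 2373 CPM and 1249, 1550 and 1639 CPM, with -0.54 (SE 0.18, adjusted p = 0.0464). Leaving out a single library gave 0 to 2 calls, and 0 without 0.1% replicate 95, vehicle replicate 87 or vehicle replicate 90. At 0.03% and 0.006% NBF no member was called by edgeR or had an unadjusted p under 0.05 (0 of 6), and none of the 1570 features was called (0%).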

How the data were processed

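Ribosome-depleted total RNA of mouse liver was sequenced from 12 mice in 4 preparations. The authors aligned reads with STAR 2.5.3a to GRCm38/mm10 and deposited estimated counts per gene from an expectation-maximisation step in Partek Flow, of which 92.0% were whole. They also deposited log2 CPM values, used in an alternative and to infer the library totals called total reads. The TempO-Seq tables hold the authors' estimated counts per probe target, for which the counting tool was not given in the sources used here. Columns of the other log2 tables were not used here.

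Genes with a geometric mean above 1 count (offset 0.0001) were kept, 13370 in all. Counts were rounded and fitted with edgeR 4.0.16 (quasi-likelihood test, R 4.3.3) over 8 group means, with library size as the total over kept genes and no further scaling. A preservation call needed a Benjamini-Hochberg adjusted p under 0.05 in the same direction in Con and in PB, and effects were averaged over both. CPM used the same totals. Lengths, GC content and shared windows came from GENCODE vM21 transcripts and promoters from RefSeq. Paralog ratios (CPM + 0.5) were tested with an exact two-sided sign-flip permutation test over mice. Alternatives used limma 3.58.1 and DESeq2 1.42.0. TempO-Seq counts were scaled by TMM.

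The replicate is the mouse. Samples of the same number came from the same animal, and the deviations of all 72 same-mouse pairs correlated above 0.1 (median 0.744, against -0.145 between mice, over 4117 genes). On simulated counts of FFPE vs. FR in both treatments, 94% of 2-fold changes and 3% of log2 changes of 0.3 were recovered, for PB in FR 99% and 14%, and for the interaction of PB with FFPE 79% and 2%. In each, 100 genes were changed by each amount and all others left unchanged, unlike in the data. The recovery for the members may therefore differ. Replicates differed by more than counting noise (chi-square per degree of freedom at least 6.98).

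The genes named in the text were both genes of each paralog pair, the 5 lowest and 5 highest changes in FFPE vs. FR, the 3 highest and 3 lowest levels per kb, up to 8 genes with the smallest adjusted p for PB, the stalk genes, Rpsa, Rps6 and Rps19bp1, and the extremes of each other list. Other names were added after their values were seen. The members and lists were chosen with earlier results of these data known. Lane terms for PB vs. Con and the sum of Rps27 with Rps27rt were alternatives chosen after seeing the data. Some genes that these rules name are not reported here, although they stay in the counts.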

Additional observations from a re-analysis of the deposited data

Results flagged for a closer look

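In 172 groups of 5 or 6 libraries, 6 values lay apart from the rest of their group by Dixon's criterion, a number that chance alone could give, since about 1 in 20 groups passes it. In FR > FFPE Con, mouse 21C was highest for Rpsa at 202 CPM (next 177 CPM) and for Rplp0 at 295 CPM (next 251 CPM), and it was the shallowest library of its group with 5.53e+06 counts. In FR > FFPE PB, mouse 18B was highest for Rps29 at 63.5 CPM (next 48.4 CPM) and mouse 75C was lowest for Rpl35 at 45.8 CPM (next 55.4 CPM). In the rat lung TempO-Seq libraries, FR > FFPE replicate 59 was highest for Rpl6 at 4044 CPM (next 1994 CPM), and FR replicate 50 was lowest for Rps6 at 11080 CPM (next 14910 CPM).

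After scaling, Rps27l was higher in every FFPE library than in every FR library by TempO-Seq in rat liver and rat lung. The log2 fold change was 1.55 in rat liver, on 40 to 87 counts in FR and 28 to 88 in FFPE. In rat lung it was 4.88, on at most 4 counts in FR. By RNA-seq in mouse liver, Rps27l was lower in FFPE in 12 of 12 mice. The difference between these datasets was not tested, and species, assay and tissue block cannot be told apart in it.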

How the results depend on the processing

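Counts within 1.5 times the reported one, and values with no test within 1 SD of it, are taken as kept. Of 169 alternatives, 122 were kept in this sense or, for tested values, in direction and side of the threshold, 40 moved a count or value further, 6 kept the direction but lost the call and 1 reversed. Members called in FFPE vs. FR (60) were 92 with total reads, 92 with limma on log2 CPM values, 89 with TMM, 90 with DESeq2 size factors and 42 with a lane term. The limma alternative and total reads share the same library totals. Among all genes 59.2% were called lower with total reads and 22.4% with TMM. Members called in FR > FFPE vs. FR (48) were 88 with TMM, DESeq2 size factors, total reads or limma, and in FR > OH vs. FR (55) they were 88 with total reads and 87 with limma. All genes called lower in FR > FFPE were 15.2% with TMM and 17.8% with total reads. In FR > OH they were 20.7% with total reads. FFPE vs. FR > FFPE (22, of which 21 lower) had 90 with total reads or limma, against 65.3% of all genes called lower with total reads. Shares of all genes under limma, DESeq2 size factors or the lane term were not computed for these comparisons. With length and GC removed by splines the members' relative median was -0.254 and the large minus small subunit difference 0.088 in place of -0.066.

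PB calls in FR (68) were 39 with limma and 7 with a lane term. In FFPE (7) they were 0 with TMM or DESeq2 size factors, 3 with total reads, without genes over 1% of a library or after thinning, 4 with limma or no filter and 1 with a lane term. In FR > FFPE (36) they were 9 with TMM, 8 with DESeq2 size factors, 15 with total reads, 14 without genes over 1% and 16 with limma. In FR > OH (25) they were 42 with total reads, 14 without genes over 1% and 2 with a lane term. In AML12 leaving out 1 library gave 0 to 2 calls. All genes called higher with PB were 1.78% in FR with a lane term, 4.2% in FFPE with TMM and 3.09% in FFPE with a lane term. They were 3.63% in FR > FFPE with TMM and 2.01% in FR > OH with a lane term. For PB vs. Con, shares of all genes under limma, DESeq2 size factors or total reads were not computed. Nor were those after thinning, with no filter or without genes over 1% of a library, so these counts have no background beside them. The cause of these differences between settings was not tested.

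With mouse as a replicate block, 63 members were lower in FFPE vs. FR, 59 in FR > FFPE, 64 in FR > OH, and 28 lower and 3 higher in FFPE vs. FR > FFPE, and the interaction had 1 call in place of 0. All genes called lower in these preservation comparisons were 14.4%, 7.91%, 10.2% and 12.1%, in the order named, and 7.46% were called higher in the last. In Con or PB mice alone the number of paralog ratios called in FFPE was 0 in place of 3, in designs of 6 mice that allow no p below 0.03125 before adjustment, and Rpl36al to Rpl36a had 0.0796 in PB mice alone. With FFPE and all other libraries thinned to the depth of the smallest, 61 members were called in FFPE vs. FR.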
